A study of Mus musculus with 6 samples.

Results

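The genes described here encode the nuclear part of the mitochondrial respiratory chain: complex I, complex III, complex IV and ATP synthase, which is also called complex V. They were taken as the rows of the count matrix whose mouse gene symbol began with Ndufa, Ndufb, Ndufs or Ndufv and a digit, with Cox4 to Cox8 followed by a, b or c, with Uqcr, or with Atp5, and that held at least 60 counts over the 6 libraries. Of 55536 rows, 89 matched by symbol and 81 also reached the count minimum. The 81 rows were 72 protein-coding genes (34 of complex I, 8 of complex III, 13 of complex IV and 17 of complex V), 8 processed pseudogenes and 1 noncoding transcript, Ndufb1-ps. The 8 rows below the minimum were Atp5k-ps2, Cox7b2, Ndufs6b, Cox8b, Ndufa4l2, Cox8c, Ndufa11b and a second identifier of Atp5o. Of these, 3 had no count in any library.

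Polyadenylated RNA of thymocytes was sequenced from 3 mice labelled Il3ra-/-, deficient in the alpha chain of the interleukin-3 receptor, and from 3 labelled Il3ra+/+. Both groups were at steady state with no treatment, and the labels used here give neither the age nor the way in which the receptor gene was inactivated. Each library came from a different mouse, and the comparison was libraries labelled knockout over wild-type libraries.

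In the respiratory chain, complex I takes electrons from NADH and passes them to ubiquinone, complex III passes them on to cytochrome c, and complex IV hands them to oxygen. The proton gradient built by these pumps drives ATP synthase. A small core of each of these complexes is translated inside the mitochondrion from its own genome, and the other subunits, measured here, are made in the cytosol and imported. Dividing thymocyte precursors are known to rely on this machinery as they pass from the double-negative to the double-positive stage.

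The libraries held between 55747682 and 82684219 counts, and the 72 protein-coding members took 0.521% to 0.608% of them. Levels are given in CPM, the count scaled to a common library size with trimmed mean of M-values (TMM) factors. The quasi-likelihood test of edgeR with Benjamini-Hochberg adjustment, run over 18690 genes, called 3 genes higher and 14 lower at an adjusted p below 0.05. Il3ra itself had 465, 376 and 399 counts in the wild-type libraries and 481, 673 and 514 in the libraries labelled knockout, so its level did not check the labels. The part of the gene that was removed is not in the labels. Replicate 1 of each genotype had Xist, the RNA of the inactive X chromosome, at 88078 and 128236 counts, against 8 to 57 in the other 4 libraries. The 7 thymocyte markers summed to 9415 to 10760 CPM in wild type and 7992 to 8632 CPM in the libraries labelled knockout. Markers of B cells, macrophages, dendritic cells, erythroid cells, and epithelial and stromal cells summed to at most 129.0 CPM in any library. In bulk RNA, fewer cells of a type and less RNA per cell cannot be told apart.

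Upstream stretches of 5 members are shown first, because they carry letters like those bound by known factors of mitochondrial gene control. These factors are nuclear respiratory factor 1 (NRF1) and the ETS family, to which GABP belongs. They were chosen after the matches had been found, and each is the longest run within the 250 bases before the RefSeq start that held no annotated exon, read 5′ to 3′ on the gene's strand from RefSeq on GRCm38.p6. Capitals mark the paired NRF1 motif, which is GCGC, any 2 bases and GCGC again, or CCGGAAG, the core that ETS factors bind. The Ndufb4 stretch lies at chr16:37654454-37654618, that of Ndufs5 at chr4:123718203-123718436, that of Uqcr11 at chr10:80406831-80407071, that of Cox6a1 at chr5:115348982-115349129 and that of Atp5h at chr11:115419963-115420127, all on the minus strand.
Ndufb4: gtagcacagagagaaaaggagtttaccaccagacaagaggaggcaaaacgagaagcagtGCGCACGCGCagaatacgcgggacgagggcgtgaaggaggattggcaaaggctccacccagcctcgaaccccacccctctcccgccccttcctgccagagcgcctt
Ndufs5: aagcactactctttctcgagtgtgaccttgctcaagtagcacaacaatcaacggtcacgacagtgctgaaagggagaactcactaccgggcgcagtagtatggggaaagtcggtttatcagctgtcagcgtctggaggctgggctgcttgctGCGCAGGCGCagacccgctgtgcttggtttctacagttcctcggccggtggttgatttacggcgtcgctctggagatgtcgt
Uqcr11: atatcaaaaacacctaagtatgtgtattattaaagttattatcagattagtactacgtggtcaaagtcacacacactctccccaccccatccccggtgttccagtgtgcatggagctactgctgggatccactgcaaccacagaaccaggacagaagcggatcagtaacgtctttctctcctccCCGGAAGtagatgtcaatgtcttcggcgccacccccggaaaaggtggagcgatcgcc
Cox6a1: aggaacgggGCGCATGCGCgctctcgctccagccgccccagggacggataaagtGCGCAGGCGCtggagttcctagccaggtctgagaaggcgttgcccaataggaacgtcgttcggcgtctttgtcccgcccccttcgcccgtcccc
Atp5h: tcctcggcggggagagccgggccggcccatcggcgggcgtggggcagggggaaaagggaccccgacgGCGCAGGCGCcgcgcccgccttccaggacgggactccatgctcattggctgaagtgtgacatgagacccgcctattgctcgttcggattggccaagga
The NRF1 letters began 191 bases before the start in Ndufb4, 98 in Ndufs5 and 141 in Atp5h. Cox6a1 held a pair, at 162 and 117 bases, of which the first was the full NRF1 palindrome, with AT between the GCGC runs. The other matches were of the looser form, with AC between the runs in Ndufb4 and AG in the rest. Whether NRF1 binds those letters was not tested. The ETS letters of Uqcr11 began 66 bases before its start.

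Over all members, windows from 250 bases before to 50 after the start were found for 59 of the 72 protein-coding genes, as 64 windows, and were searched on both strands. The paired NRF1 motif was in 17 of them (26.6%), against 6.23% of all 32851 windows, and the palindrome, a special case of it, was in 5 (7.81%), against 0.971%. CCGGAAG was in 14 windows (21.9%, against 8.86%) and the YY1 letters AAGATGGC in 8 (12.5%, against 2.75%). The TATA-box letters TATAAA were in 6 windows, or 9.38%, against 13.6% of all windows. A match describes the letters of a window and not a bound site. The windows set beside the members were not matched to them in base composition or in gene level. Whether the differences in share are particular to respiratory chain genes was not tested.

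Between genotypes, the respiratory chain genes differed little. In the libraries labelled knockout, 62 of the 72 protein-coding members were fitted higher, with a median of 1.08-fold, and none passed the test. The median log2 fold was 0.12 (quartiles 0.04 and 0.18), against 0.01 (quartiles -0.16 and 0.21) over all tested genes, of which 51.2% were fitted higher. By edgeR with Benjamini-Hochberg adjustment over all genes, 0 of 72 were called, where 0.0910% of all genes were, and the smallest adjusted p was 0.246. At an unadjusted p below 0.05, 8 members were higher and 0 lower, where 8.01% of all genes were higher and 6.60% lower. DESeq2 also called 0 of 72, where it called 4.27% of all genes, with 6 higher at an unadjusted p below 0.05 and a smallest adjusted p of 0.0896.

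The intervals of the members were narrow. The 95% interval of the fold lay within 1.5-fold in both directions for 67 of 72 members (93.1%), against 48.9% of all tested genes, and this held for all 34 members of complex I and all 8 of complex III. The biological coefficient of variation, the spread between mice beyond counting error, had a median of 11.1% over the members and 16.3% over all genes. Other lists described below were much alike. The interval lay within 1.5-fold for 96.1% of mitochondrial and 91.6% of cytosolic ribosomal protein genes. It did so for 92.3% of tricarboxylic acid cycle genes and 81.4% of assembly factors. The median coefficients of variation of these lists were 11.5%, 12.9%, 10.65% and 13.2%. All 3 libraries labelled knockout lay above all 3 wild-type libraries for 12 members, and below them for 0. That is 16.7% of the members, where 10.9% of all genes were separated upward and 9.38% downward. The 12 were Ndufb9, Ndufb3, Ndufa9, Ndufa1, Ndufs5 and Ndufs1 of complex I, Cox6a2, Cox7a2 and Cox5b of complex IV, and Atp5j, Atp5k and Atp5o of complex V. Upward separation was also seen for 8 of 43 assembly factors and 3 of 13 tricarboxylic acid cycle genes, with 0 downward in either list. Of the ribosomal protein genes, 11 of 77 mitochondrial and 11 of 83 cytosolic ones were separated upward, and 3 and 0 downward.

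**Figure D1:**
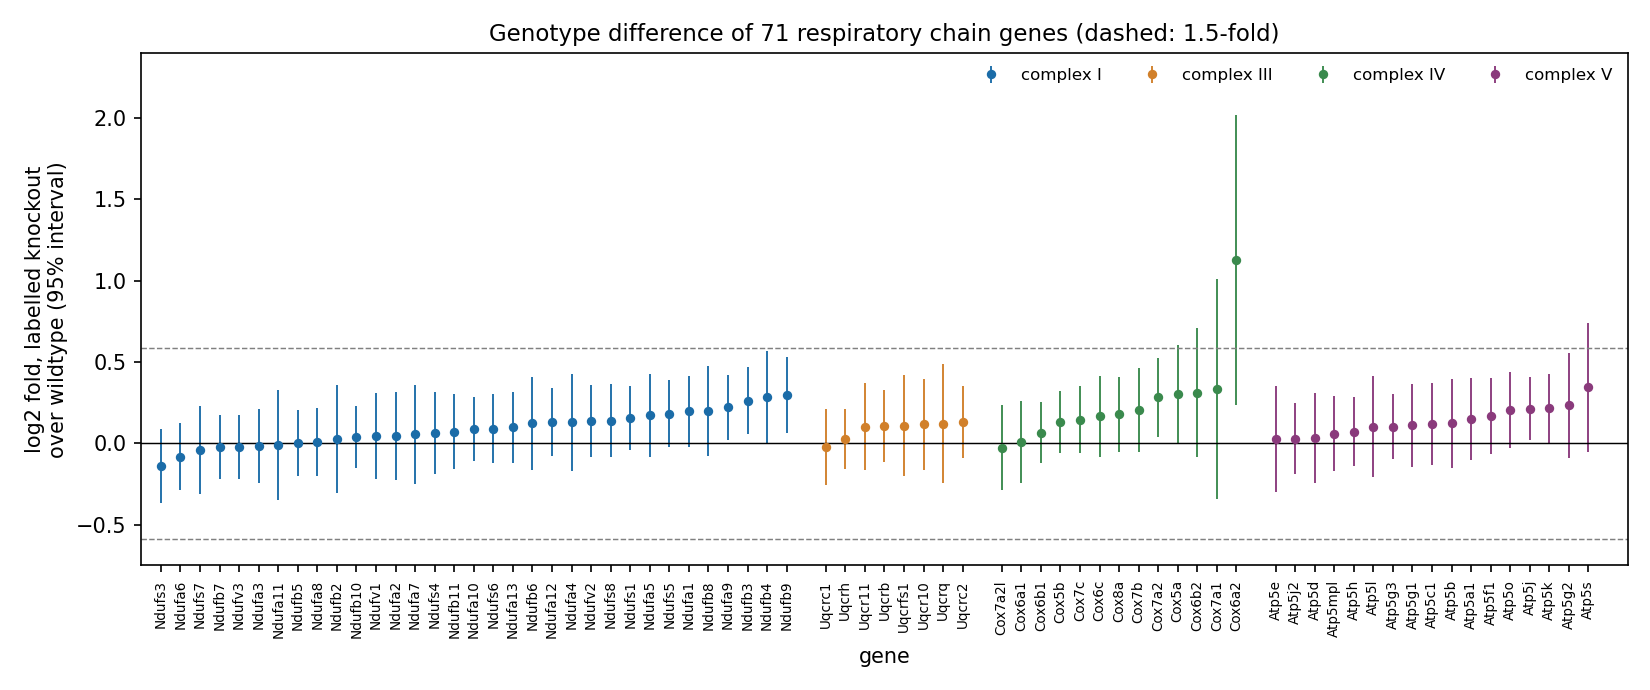
Log2 fold of 71 protein-coding members, libraries labelled knockout over wild type, with its 95% interval from the edgeR fit, by complex, and dashed lines at 1.5-fold. Most points sit slightly above 0, where the median over all 72 is 0.12, and Cox6a2 lies apart at 1.13 with the widest interval.

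The levels of the members varied alike from library to library. Knockout-labelled library 3 held the highest level of 47 of the 72 members and the lowest of 0, where it was highest for 24.6% and lowest for 23.4% of all genes. Wild-type library 1 was highest for 16 members, wild-type library 2 was lowest for 37, wild-type library 3 for 17 and knockout-labelled library 1 for 15. On the log2 scale, the median deviation of the members from their own mean was 0.08, -0.15 and -0.09 in wild-type libraries 1, 2 and 3, and -0.05, 0.05 and 0.16 in knockout-labelled libraries 1, 2 and 3. Wild-type library 1 thus lay above knockout-labelled library 1 and between the other pair of that label.

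**Figure D2:**
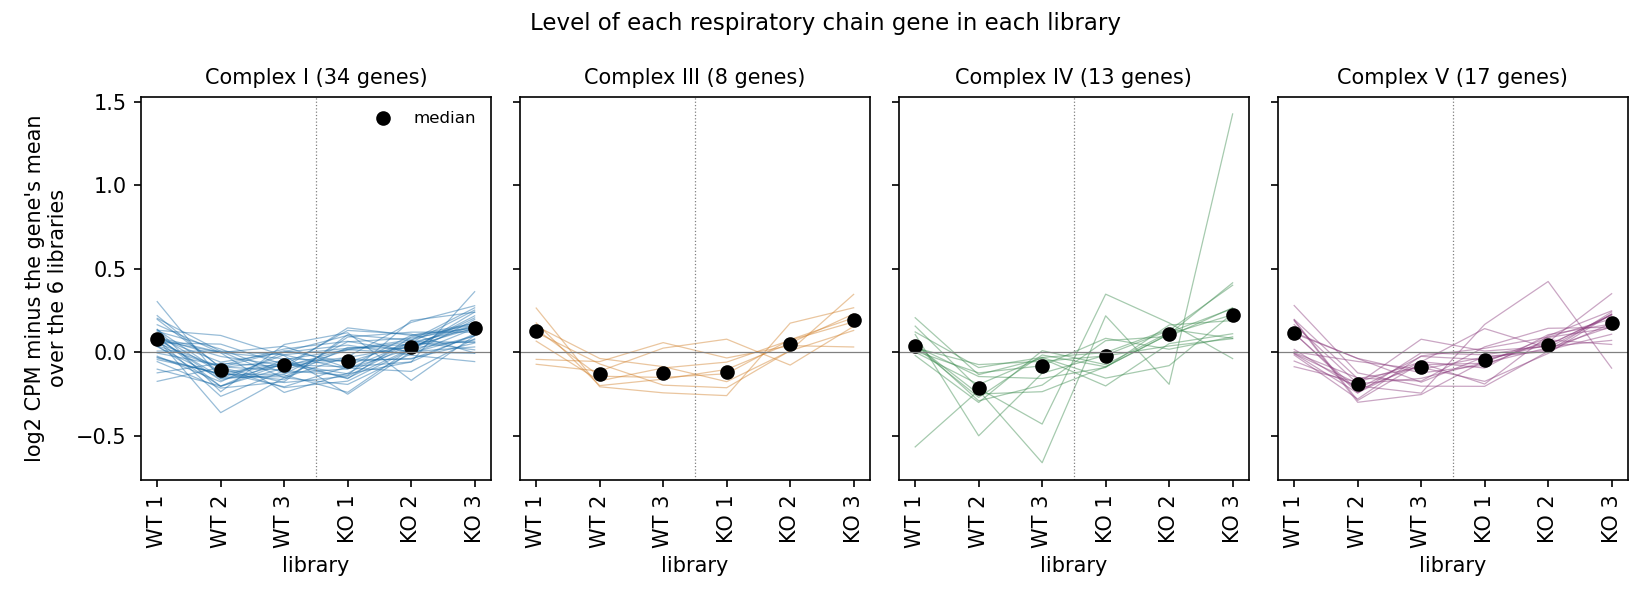
Deviation of each protein-coding member from its own mean over the 6 libraries (log2 of TMM-scaled CPM), with 1 panel per complex, 1 line per gene and the median as a black point. Over all members, wild-type library 2 sits lowest and knockout-labelled library 3 highest, with medians of -0.15 and 0.16.

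Other large families had the same order of libraries at their ends. The median deviation of the cytosolic ribosomal protein genes was 0.10, -0.18 and -0.10 in wild type and -0.09, 0.09 and 0.19 in the libraries labelled knockout. The transcripts of the mitochondrial genome deviated by 0.10, -0.36 and 0.07 in wild type and by -0.15, 0.03 and 0.32 in the other group. Cell division genes differed from these in knockout-labelled library 1, where they stood at 0.37, against -0.16, -0.40 and -0.15 in wild type and 0.01 and 0.39 in the other 2 libraries labelled knockout. The median of the thymocyte markers ran the other way, at 0.10, 0.15 and 0.11 in wild type and -0.07, -0.11 and -0.20 in the libraries labelled knockout. Of these 7 markers, 6 were fitted lower and 1 higher. The part of these library differences in the members' levels was not tested.

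**Figure D3:**
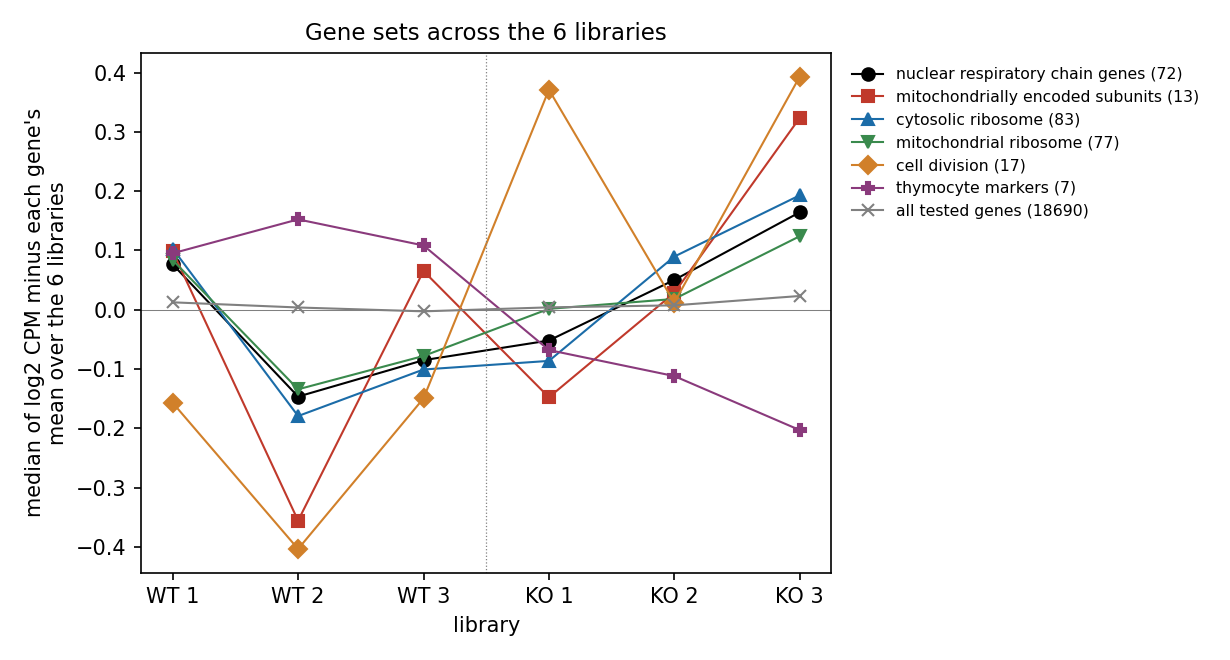
Median deviation per library (log2 of TMM-scaled CPM) of the protein-coding members and of the companion gene lists. The members, the ribosomal proteins and the mitochondrially encoded subunits are lowest in wild-type library 2 and highest in knockout-labelled library 3, and the thymocyte markers are lowest in the latter.

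Summed over a complex, the groups overlapped. Complex I summed to 1597, 1434 and 1450 CPM in wild type and 1481, 1555 and 1672 CPM in the libraries labelled knockout. Complex III summed to 592.9, 519.2 and 527.8 CPM against 517.3, 573.9 and 625.8 CPM. Complex IV summed to 907.4, 765.1 and 821.9 CPM against 818.4, 900.1 and 971.2 CPM, and complex V to 2799, 2303 and 2552 CPM against 2569, 2741 and 3065 CPM. The ratio of the group means was 1.05 for complexes I and III, 1.08 for complex IV and 1.09 for complex V. In each complex, wild-type library 1 exceeded knockout-labelled library 1. The low end depended on the scaling. With library totals, wild-type library 3 was lowest for complexes I (1422.8 CPM) and III (517.8 CPM), against 1486.6 and 538.2 CPM in wild-type library 2. Over all 72 members, wild-type library 2 stayed lowest and knockout-labelled library 3 highest. The highest sum was then 1.17 times the lowest, against 1.26 with TMM. The makeup of the sum hardly moved: complex V took 45.9% to 48.4% of the members' CPM in every library, complex I 26.4% to 28.6%, complex IV 15.2% to 15.6% and complex III 9.61% to 10.3%.

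In complex I, 26 of 34 members were fitted higher in the libraries labelled knockout, with a median log2 fold of 0.08, and 3 had an unadjusted p below 0.05. Ndufb9, an accessory subunit of the membrane arm (chr15:58933756-58939488), was at 20.9, 18.7 and 19.2 CPM in wild type and 23.4, 22.8 and 26.1 CPM in the libraries labelled knockout. The groups did not overlap, and the fold was 1.23 (95% interval 1.05 to 1.45, edgeR with Benjamini-Hochberg adjusted p = 0.246). Ndufb3, another membrane-arm subunit, was at 26.1, 24.4 and 26.3 CPM against 31.0, 30.1 and 31.0 CPM, which is 1.20-fold (1.04 to 1.39, adjusted p = 0.248). Ndufa9, which sits where the membrane arm meets the matrix arm, was at 36.8, 34.7 and 33.8 CPM against 40.4, 41.2 and 41.2 CPM, or 1.17-fold (1.02 to 1.34, adjusted p = 0.292). In Ndufb3 and Ndufa9 the libraries of each label lay close together, including knockout-labelled library 1. In Ndufb9 the libraries labelled knockout spread more widely, from 22.8 to 26.1 CPM.

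Other complex I members overlapped between the groups or differed by less. Ndufb4, a membrane-arm subunit (chr16:37647170-37654453) whose upstream stretch is printed above, was at 31.0, 22.9 and 26.4 CPM in wild type and 28.8, 33.2 and 35.6 CPM in the libraries labelled knockout. Wild-type library 1 exceeded knockout-labelled library 1, and the fold was 1.22 (0.999 to 1.48, edgeR adjusted p = 0.347). Its counts may hold reads of a pseudogene copy, Ndufb4c, described at the end. Ndufs5, also shown above, was at 31.8, 33.1 and 32.6 CPM against 35.1, 36.5 and 39.2 CPM, a fold of 1.14 with an adjusted p of 0.397. Ndufv1, the catalytic subunit of the matrix arm that binds the flavin, was near 1, with a fold of 1.03 (0.858 to 1.24). Ndufs3, named for having the lowest fold of all members, was at 53.7, 52.5 and 48.3 CPM against 41.2, 49.1 and 50.1 CPM, or 0.909-fold (0.775 to 1.07, adjusted p = 0.572). Ndufb11, an X-linked subunit, had the highest level per kilobase of exon in complex I, 73.1 CPM (with the shortest principal transcript as the length it was Ndufa4, at 139 CPM), and a fold of 1.05 (0.898 to 1.23, adjusted p = 0.786).

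In complex III no member was called or separated between the groups. Of its 8 members 7 were fitted higher and 0 had an unadjusted p below 0.05. Uqcrc2, a core protein of the complex, had the smallest p: it was at 107, 90.6 and 95.6 CPM in wild type and 97.9, 107 and 116 CPM in the libraries labelled knockout, or 1.10-fold (0.940 to 1.28, edgeR adjusted p = 0.578). Uqcrh, the hinge protein that touches cytochrome c1, was at 119, 118 and 128 CPM against 120, 126 and 126 CPM, which is 1.02-fold (0.895 to 1.16, adjusted p = 0.921). The small subunits Uqcrb, Uqcr10 and Uqcr11 had folds of 1.08, 1.09 and 1.08. Uqcrq, another small subunit, was at 49.5, 35.7 and 34.8 CPM against 34.4, 46.5 and 49.6 CPM. Replicate 1 ran opposite to the other libraries there, highest in wild type and lowest in the libraries labelled knockout.

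Complex IV had the highest median log2 fold, 0.18, with 12 of 13 members fitted higher and 3 at an unadjusted p below 0.05. Cox7a2, the form of subunit VIIa made in most tissues (chr9:79755361-79759878), was at 57.4, 45.2 and 48.3 CPM in wild type and 58.1, 59.1 and 66.6 CPM in the libraries labelled knockout. The groups did not overlap, but wild-type library 1 and knockout-labelled library 1 were close, and the fold was 1.22 (1.03 to 1.44, edgeR adjusted p = 0.279). Cox5a, a structural subunit that faces the matrix, was at 38.5, 31.4 and 31.7 CPM against 35.1, 40.2 and 49.8 CPM, or 1.23-fold (1 to 1.52, adjusted p = 0.341). Cox7b, an X-linked subunit, was at 75.9, 62.5 and 77.5 CPM against 73.1, 83.6 and 92.3 CPM (adjusted p = 0.447). Ndufa4, which was found as a complex I protein and is now assigned to complex IV, was at 66.6, 54.1 and 59.6 CPM against 57.1, 59.95 and 80.3 CPM (adjusted p = 0.699), and moving it there left the medians at 0.07 for complex I and 0.17 for complex IV.

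Cox6a2, the heart and skeletal muscle form of subunit VIa (chr7:128205435-128206387), had the largest fold of the members and was rare. Its counts were 40, 49 and 41 in wild type and 70, 73 and 186 in the libraries labelled knockout, or 0.671, 0.848 and 0.628 CPM against 1.16, 0.870 and 2.67 CPM. The groups did not overlap, though wild-type library 2 and knockout-labelled library 2 nearly met, and the fold was 2.19 (1.18 to 4.06, edgeR adjusted p = 0.250). Without the filter on low counts it passed the test by edgeR with Benjamini-Hochberg adjustment (adjusted p = 0.0345), where 1.60% of all genes were called higher. Markers of dendritic cells summed to 17.0 to 19.3 CPM in wild type and 11.8 to 46.4 CPM in the libraries labelled knockout, with none of the 5 at 0. Among them Siglech, a lectin of plasmacytoid dendritic cells, had 129, 266 and 166 counts in wild type and 182, 591 and 1522 in the libraries labelled knockout. The other markers of the list did not follow it throughout: Xcr1 was at 3.09, 2.11 and 2.42 CPM in wild type and 1.31, 2.30 and 1.84 CPM in the libraries labelled knockout (0.717-fold), and Zbtb46 had a fold of 1.009. By library, 4 of the 5 were highest in knockout-labelled library 3 (24.6% of all genes were) and 4 were lowest in knockout-labelled library 1. The 1 left in each case had its extreme in wild-type library 1. Of the B cell markers 4 of 4, and of the macrophage markers 3 of 5, were also highest in knockout-labelled library 3. Siglech alone made up 21.9 of the 46.4 CPM of the dendritic cell markers in knockout-labelled library 3. Cox6a2 and Siglech were both highest there, but in knockout-labelled libraries 1 and 2 they ran opposite, at 1.16 and 0.870 CPM for Cox6a2 and 3.01 and 7.04 CPM for Siglech. The part of dendritic or other cells in the Cox6a2 level was not tested.

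**Figure D4:**
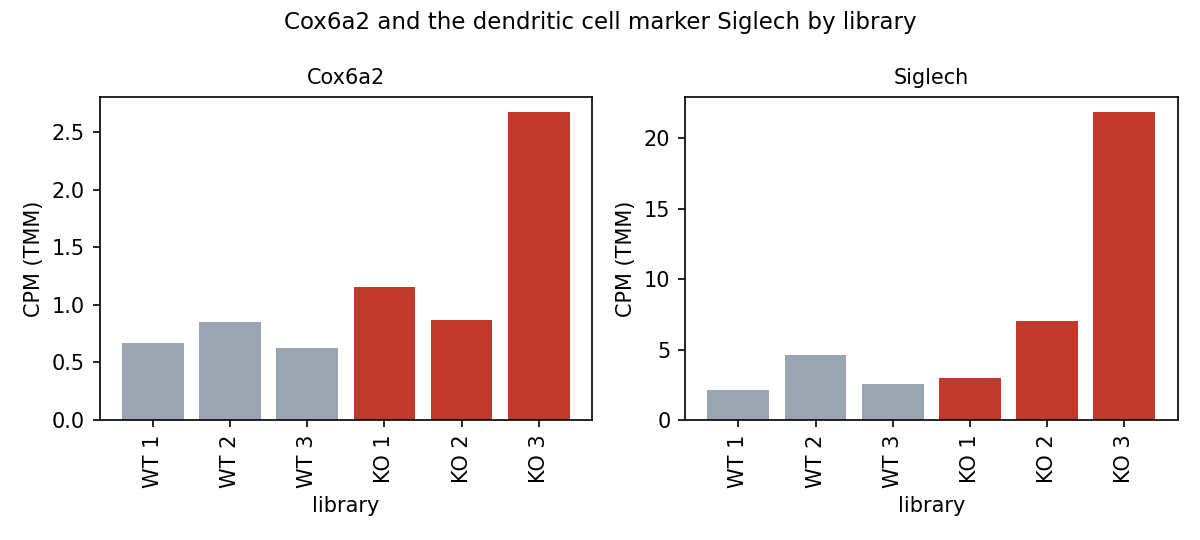
TMM-scaled CPM of Cox6a2 and of Siglech as bars for each of the 6 libraries (grey, wild type; red, labelled knockout). Both are highest in knockout-labelled library 3, at 2.67 and 21.9 CPM, while Cox6a2 is higher in knockout-labelled library 1 than in library 2 (1.16 against 0.870 CPM) and Siglech is lower (3.01 against 7.04 CPM).

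In complex V all 17 members were fitted higher, with folds from 1.02 to 1.27, and 2 had an unadjusted p below 0.05. Atp5j, coupling factor 6 of the stalk (chr16:84827866-84835625), was at 82.0, 76.9 and 83.7 CPM in wild type and 96.1, 88.6 and 96.9 CPM in the libraries labelled knockout. The groups did not overlap, and the fold was 1.16 (1.014 to 1.33, edgeR adjusted p = 0.295). Atp5k, the small membrane subunit e, was at 37.1, 33.4 and 32.9 CPM against 38.0, 41.0 and 41.2 CPM, or 1.16-fold (1.004 to 1.35, adjusted p = 0.331). Atp5o, the stalk protein that confers oligomycin sensitivity, was at 36.5, 30.4 and 36.4 CPM against 37.6, 39.4 and 42.5 CPM (adjusted p = 0.397). Atp5k and Atp5o separated the groups by a narrow margin, since wild-type library 1 and knockout-labelled library 1 differed by about 1 CPM in each.

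The catalytic head of ATP synthase was the most abundant product among the members. Atp5b, the beta subunit that makes ATP (chr10:128083273-128090391), was at 873, 690 and 766 CPM in wild type and 771, 822 and 943 CPM in the libraries labelled knockout, or 1.09-fold (0.902 to 1.32, edgeR adjusted p = 0.687). Atp5a1, its alpha partner, was at 594, 504 and 577 CPM against 569, 605 and 685 CPM, which is 1.11-fold (0.933 to 1.32, adjusted p = 0.573). In both, the groups overlapped and wild-type library 2 was lowest. Atp5s, a low-level member that is named for ATP synthase, was at 4.80, 4.33 and 4.20 CPM against 5.58, 6.67 and 4.66 CPM, a fold of 1.27 (0.965 to 1.67, adjusted p = 0.409) with overlapping groups.

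Levels between genes were compared as CPM per kilobase of annotated exon, averaged over the 6 libraries. Atp5b was highest at 191 CPM per kilobase, followed by Atp5a1 at 188, Cox6a1 at 152, Cox7a2l at 130 and Cox6b1 at 125.5. With the shortest principal transcript as the length the order changed, to Atp5b at 423, Atp5h at 367, Atp5a1 at 238, Uqcrh at 225 and Atp5g2 at 212. Where a subunit has tissue forms, the thymocytes held mostly the common one. Muscle-form Cox6a2 stood at 1.08% of Cox6a1 (0.599% to 2.21% over the libraries), and muscle-form Cox7a1 at 2.19% of Cox7a2 (SD 0.185 over the 6 libraries). Testis-form Cox6b2 stood at 5.59% of Cox6b1 (4.25% to 7.12%), or 11.6% with the other length. The 3 genes for the c-ring of ATP synthase encode the same mature protein. Among them Atp5g2 stood at 102% of Atp5g3 (127% with the other length) and Atp5g1 at 15.0% of it (40.4% with the other length).

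Cox7a2l, described as joining complexes III and IV into supercomplexes in place of Cox7a2, stood above Cox7a2. Whether it has that role in these mice was not tested. Per kilobase it was at 246%, 246% and 247% of Cox7a2 in the wild-type libraries and at 183%, 214% and 198% in the libraries labelled knockout. The ratio was higher in every wild-type library than in any library labelled knockout, and the 3 wild-type values lay within 1 percentage point. The ratio was singled out after its values were seen and was not tested. Cox7a2l alone was at 221, 174 and 187 CPM in wild type and 167, 198 and 207 CPM in the libraries labelled knockout, a fold of 0.982 (0.820 to 1.18, edgeR adjusted p = 0.945) beside the 1.22-fold of Cox7a2 given above.

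Leaving out replicate 1 of each genotype, the pair with Xist, widened the difference between the groups. With the other 4 libraries, 69 of the 72 protein-coding members were fitted higher and the median log2 fold was 0.24, against 0.02 over all genes. By edgeR with Benjamini-Hochberg adjustment, 5 of the 72 then rose, where 2.06% of all genes were called higher. They were Uqcrq at 1.36-fold (adjusted p = 0.0444), Atp5g2 at 1.40-fold (0.0469), Cox5a at 1.43-fold (0.0470), Ndufb4 at 1.40-fold (0.0479) and Cox7a2 at 1.34-fold (0.0499). The pseudogene Atp5l2-ps was called as well, at 1.57-fold with an adjusted p of 0.0345. Knockout-labelled libraries 2 and 3 both exceeded wild-type libraries 2 and 3 for 57 of the 72 members (79.2%), against 31.7% of all genes. In replicate 1, by contrast, 52 of 72 members were lower in the library labelled knockout than in the wild-type one, with a median log2 ratio of -0.12, against 9401 of 18690 genes tested and a median of 0.00. Leaving out knockout-labelled library 3 alone lowered the median to 0.05, and leaving out wild-type library 2 lowered it to 0.06.

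For the rest of the energy machinery, edgeR with Benjamini-Hochberg adjustment called 0 genes in each of the lists that follow. The 13 subunits encoded by the mitochondrial genome, the partners of the members in each complex, were all fitted higher with a median log2 fold of 0.14 and 0 at an unadjusted p below 0.05. Their leading genes were mt-Atp8 at 1.17-fold (adjusted p = 0.433) and mt-Nd6 at 1.20-fold (adjusted p = 0.501). Complex II, which is wholly nuclear, had a median of 0.15 over 4 genes, led by its membrane anchors Sdhd (1.18-fold, adjusted p = 0.310) and Sdhc (1.13-fold). Another 6 subunits whose symbols fall outside the rule had a median of 0.12, and among them the lung form Cox4i2 had 11, 11 and 7 counts in wild type and 24, 27 and 18 in the libraries labelled knockout (2.02-fold, adjusted p = 0.319). Of 45 assembly factors 43 were tested, and 27 were fitted higher with a median of 0.08 and 0 at an unadjusted p below 0.05. They were led by Bcs1l, which inserts the iron-sulphur protein into complex III (1.24-fold, adjusted p = 0.360), and Pet100, a complex IV factor (1.19-fold).

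Regulators of mitochondrial genes split evenly in direction, with 7 fitted higher and 7 lower. Of these 14, 3 were higher and 3 lower at an unadjusted p below 0.05, where 8.01% and 6.60% of all genes were. Upward separation of the groups was seen for 4 and downward for 3, against 10.9% and 9.38% of all genes. The log2 folds ran from -0.54 to 0.47 with a median of 0.00. Myc, a driver of growth and of many mitochondrial genes, was at 62.9, 55.5 and 66.4 CPM in wild type and 85.0, 78.7 and 92.4 CPM in the libraries labelled knockout. Its groups did not overlap, at 1.39-fold with an edgeR adjusted p of 0.139, while Polg, the mitochondrial DNA polymerase, was at 0.798-fold (adjusted p = 0.186). The 13 tricarboxylic acid cycle genes had a median of 0.07, led by Suclg2 at 1.36-fold (adjusted p = 0.181). The 7 carrier genes, among them the outer-membrane channel Vdac1 at 1.20-fold (adjusted p = 0.265), had a median of 0.12, and the 16 glycolysis genes one of 0.01, led by Hk2 at 1.42-fold (adjusted p = 0.259). The 77 mitochondrial and 83 cytosolic ribosomal protein genes had medians of 0.10 and 0.12. All 17 cell division genes were higher at an unadjusted p below 0.05, where 8.01% of all genes were. Their median was 0.49, with Cdc6, a replication licensing factor, at 1.56-fold (adjusted p = 0.139). The cell division list, like the others, was chosen with earlier results of these data known. Its count is therefore a description and no independent contrast to the members.

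Processed pseudogenes are intronless copies of a spliced transcript, and the 8 among the members resemble their parent genes so closely that reads may be shared. All 8 were fitted higher, where 51.2% of all genes were, with a median log2 fold of 0.33. Of the 8, 0 were called and 0 separated, where 10.9% of all genes were separated upward. The rarest copies had the largest log2 folds: Uqcrh-ps1, Uqcrh-ps2 and Atp5c1-ps, on 111, 170 and 407 counts in all, had 0.68, 0.47 and 0.39. Atp5l-ps2, on 1473 counts, had 0.36. Cox6c2, Atp5l-ps1, Atp5l2-ps and Ndufb4c, on 7223 to 10494 counts, had 0.18, 0.23, 0.25 and 0.30. Ndufb4c (chr15:73809507-73809896) was identical to a transcript of Ndufb4 over all 390 of its bases and drew 85.8% to 89.8% as many counts as Ndufb4. Atp5l2-ps matched Atp5l at 99.4% of 312 bases and drew 24.5% to 33.9% of its count, and Atp5l-ps1 matched it at 98.4% and drew 32.6% to 38.8%. Cox6c2, at 97.0% identity over 231 bases, drew 23.4% ± 1.43 of the Cox6c count in wild type and 23.6% ± 0.63 in the libraries labelled knockout (SD, n = 3 each). The more diverged copies drew little: Atp5l-ps2, at 94.6%, drew 4.57% to 6.98%, and Uqcrh-ps1, Uqcrh-ps2 and Atp5c1-ps, at 93.3%, 94.8% and 90.7%, drew less than 1% each. The sources used here do not say how reads with several matches were counted, so the counts of these copies and of their parents are uncertain.

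**Figure D5:**
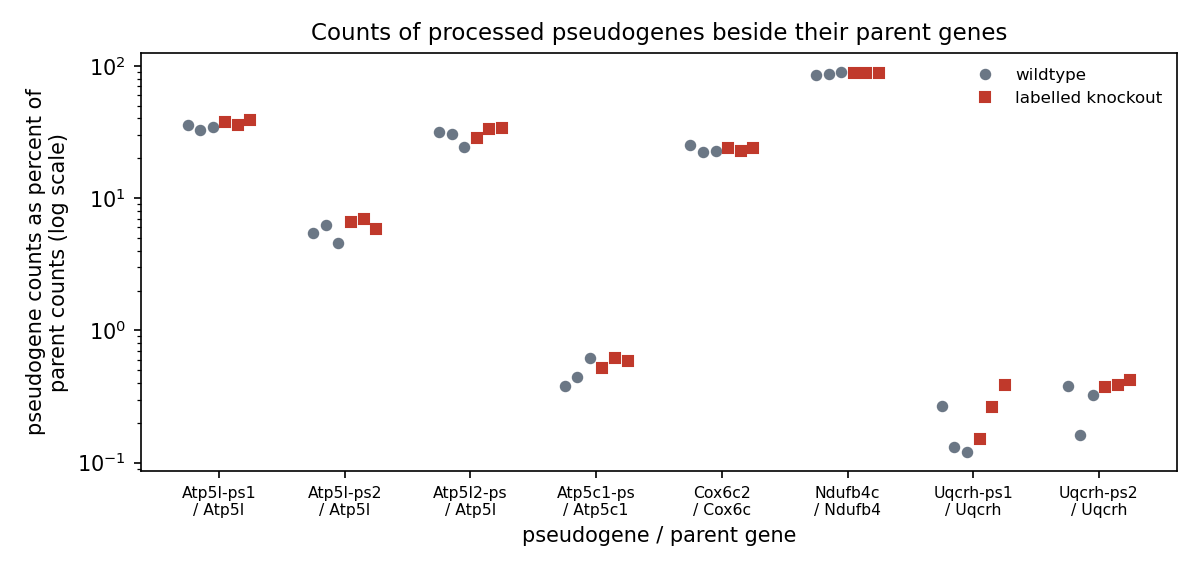
Counts of each of the 8 processed pseudogenes as a percentage of its parent gene's counts, in each library (log axis). Ndufb4c sits near its parent at 85.8% to 89.8% in both groups, and the 2 copies of Uqcrh lie at or below 0.423%.

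The ratio of a copy to its parent varied by copy. For Atp5l2-ps it was 31.8%, 30.6% and 24.5% in wild type and 28.7%, 33.4% and 33.9% in the libraries labelled knockout, with overlapping groups. For Atp5l-ps1 it was 35.4%, 32.6% and 34.2% in wild type and 37.6%, 35.5% and 38.8% in the libraries labelled knockout, and the groups did not overlap, without a test. For Ndufb4c it was 85.8%, 87.2% and 89.8% against 88.2%, 88.9% and 88.2%, with overlapping groups. Ndufb4c alone among the copies had an unadjusted p below 0.05 (1.23-fold, edgeR adjusted p = 0.319), next to its parent Ndufb4 at 1.22-fold. Ndufb1-ps (chr12:101968090-101977068), annotated as a noncoding transcript from a bidirectional promoter, was at 36.2, 29.7 and 33.3 CPM in wild type and 38.5, 41.4 and 41.5 CPM in the libraries labelled knockout. Its groups did not overlap, and the fold was 1.22 (1.04 to 1.43, edgeR adjusted p = 0.244).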

How the data were processed

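RNA of mouse thymocytes was made into stranded polyadenylated-RNA libraries, per the labels' protocols. STAR 2.5.4b, featureCounts and the build GRCm38 are named in the submitters' processing notes; how strand and reads with several matches were handled was not stated in the labels used here. The authors deposited 1 table of raw counts per gene. All 55536 identifiers matched GENCODE M21, which gave symbols, positions and exon lengths. Genes were filtered with filterByExpr and tested with edgeR 4.0.16 (TMM, robust quasi-likelihood fit, 3 against 3, Benjamini-Hochberg over 18690 genes, threshold 0.05) in R 4.3.3; the fit was tested on simulated data. The common biological coefficient of variation was 18.7%. Replicate libraries differed by 41.2 to 96.5 times the counting variance (chi-square per degree of freedom), so none was a duplicate. The series' design text says that each library was a mouse.

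The members and all lists were chosen with earlier results of these data known. Named genes were, in each complex, the 4 protein-coding members of smallest p, the highest per kilobase, the isoform pairs and every pseudogene. Of the companion lists, the 1 or 2 genes of smallest p were named, but no gene of the ribosomal protein lists. Other genes are named where a sentence needs them and were chosen after their values were seen. Alternatives were DESeq2 1.42.0, upper-quartile scaling, library totals, no count filter, a replicate block, leaving out each library or replicate 1 of both genotypes, a count minimum of 10, and another gene length, added after seeing the data. Promoters came from the RefSeq table on GRCm38.p6; amino acid sequences were not used here. The plot of folds leaves out 1 member, which is counted but not reported by itself here.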

Additional observations from a re-analysis of the deposited data

How the results depend on the processing

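Over all genes, 17 were called by edgeR, 597 by DESeq2, 840 with no filter on low counts, 8 to 29 leaving out 1 library, and 762 without replicate 1 of each genotype. Calls among the members went from 0 to 1 (Cox6a2) with no filter, to 1 of 85 with a count minimum of 10 and no filter, and to 6 without replicate 1 of each genotype, where their median log2 fold was 0.24. Leaving out 1 library kept that median between 0.05 and 0.19 with 0 protein-coding members called, and DESeq2, upper-quartile scaling and library totals each gave 0.11. The correlations of same-numbered deviations were -0.107, 0.0293 and -0.115, and those of differently numbered ones ran from -0.0778 to 0.163. The deviations were taken from group means of 3 libraries, so these values cannot tell whether replicate numbers pair the mice. Replicate 1 of both genotypes shared the high Xist count. The replicate block gave 9 genes over all, 0 members and a median of 0.12. Folds near 1 changed sign: the log2 fold of Cox6a1 was -0.0004 with DESeq2, -0.0002 with the replicate block and ran from -0.1193 (without knockout-labelled library 3) to 0.0842 leaving out 1 library, also below 0 without wild-type library 2 or 3. That of Cox7a2l ran from -0.0927 to 0.0782 leaving out 1 library, above 0 without wild-type or knockout-labelled library 1, and was 0.1659 without both, and that of Ndufa4 ran from -0.0392 (without knockout-labelled library 3) to 0.2233. With the shortest principal transcript as length, Cox6b2 was 11.6% of Cox6b1, and Atp5g1 and Atp5g2 were 40.4% and 127% of Atp5g3; the cause of the other changes was not tested. Depth limits the rarest protein-coding members most: Cox6a2 and Cox7a1 rested on 28 to 186 counts a library.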
